A study of Mus musculus with 39 samples.

Results

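Adipocytes store triglyceride and release fatty acids on demand, and they secrete hormones into the blood. The 10 genes described here mark that identity: the secreted proteins Adipoq, Lep and Cfd, the lipid binding and lipid droplet proteins Fabp4, Plin1 and Cidec, and the lipases and their regulator Lipe, Pnpla2, Lpl and Pde3b. They were taken by symbol from the count files, in which 46078 genes were counted in the libraries of mice on dexamethasone (Dex), and all 10 were found. Lipolysis in fat cells runs from Pnpla2 (ATGL), which removes the first fatty acid from triglyceride, to Lipe (hormone-sensitive lipase). Plin1 restrains both at the droplet surface, and Pde3b breaks down the cAMP that switches them on. Glucocorticoids such as Dex are known for their effects on fat distribution, lipolysis and fatty acid uptake.

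The question was how these genes stood in fat, muscle and liver of E47 mutant mice after long glucocorticoid exposure. E47 is a basic helix-loop-helix factor made from Tcf3, which also gives E12. RNA was sequenced from young adult male C57BL/6 mice on chow that received 10 µg/ml Dex in the drinking water for 3 weeks, and tissues were taken after a glucose tolerance test, for which mice had fasted overnight. Both genotypes, E47KO and wild-type (WT) littermates, had the same Dex, so no untreated fat or muscle was analysed here and a Dex effect in those tissues could not be measured. E47 is lost in the whole animal in E47KO mice. There were 3 E47KO and 2 WT livers, 2 E47KO and 2 WT samples of epididymal white adipose tissue (WAT), and 3 E47KO and 2 WT quadriceps muscles. Of the 39 libraries in all, the other 25 were livers: 4 E47KO and 4 WT after 3 weeks of 100 µg/ml corticosterone (Cort), 6 E47KO and 5 WT without treatment, and 3 of mice with Albumin-Cre and floxed E47 (E47LKO, deleted in hepatocytes) against 3 floxed controls, of which 1 was heterozygous for the floxed allele, 1 h after 1 mg/kg injected Dex. 

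Reads counted to genes per library numbered 34468535 to 42958674 in WAT, 40375225 to 45967218 in muscle, 17495304 to 21447274 in Dex liver and 15513941 to 54560884 in the other livers. The tissues carried their own markers: Fabp4 stood at 25790 to 31370 counts per 1000000 of the library total (CPM) in WAT, the skeletal muscle list of 12 genes summed to 173825 to 217343 CPM in muscle, and Alb, the main plasma protein of hepatocytes, stood at 82111 to 101084 CPM in liver. Counts per gene cannot show the loss of E47, because Tcf3 counts include E12. Gm9855 was counted 56 to 160 times in each E47KO library after 3 weeks Dex and 0 to 2 times in each WT library, and so followed these labels. In livers 1 h after Dex it did not separate the groups, at 22 to 56 counts in E47LKO and 1 to 54 in floxed controls. Mice are numbered in the deposited names, and each tissue drew on ranges of these numbers that held both genotypes. By these numbers, 3 mice gave both a liver and a muscle library.

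Promoter windows of 250 bases before and 50 bases after the transcription start were found in the RefSeq table (GRCm38.p6) for 7 of the 10 genes, with 9 windows among them. E47 binds E-boxes, and the sequences of the Adipoq, Plin1 and Cfd windows are shown because every E47KO muscle was above every WT muscle for these genes, beside that of Pnpla2, whose genotypes overlapped there. Capitals mark each match to the E-box letters CANNTG, read on both strands.
Adipoq, chr16:23146286-23146585, plus strand: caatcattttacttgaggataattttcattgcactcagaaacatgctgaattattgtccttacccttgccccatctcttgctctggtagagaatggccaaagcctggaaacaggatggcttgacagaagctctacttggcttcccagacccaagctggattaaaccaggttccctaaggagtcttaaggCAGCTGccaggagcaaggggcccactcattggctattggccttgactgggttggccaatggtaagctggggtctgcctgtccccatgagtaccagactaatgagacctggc
Plin1, chr7:79732727-79733026, minus strand: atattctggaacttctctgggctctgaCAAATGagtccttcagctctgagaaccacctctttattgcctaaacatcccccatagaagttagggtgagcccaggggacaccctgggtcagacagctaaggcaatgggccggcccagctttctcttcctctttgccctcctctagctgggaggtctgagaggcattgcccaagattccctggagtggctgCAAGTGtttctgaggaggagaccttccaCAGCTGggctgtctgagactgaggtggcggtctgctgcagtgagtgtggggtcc
Cfd, chr10:79890603-79890902, plus strand: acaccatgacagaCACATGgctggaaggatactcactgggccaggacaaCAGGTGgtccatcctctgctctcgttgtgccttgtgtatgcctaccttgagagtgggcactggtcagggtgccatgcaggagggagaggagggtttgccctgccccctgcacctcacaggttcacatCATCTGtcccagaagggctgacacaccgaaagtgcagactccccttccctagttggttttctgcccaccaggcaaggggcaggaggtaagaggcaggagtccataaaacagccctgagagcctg
Pnpla2, chr7:141454938-141455237, plus strand: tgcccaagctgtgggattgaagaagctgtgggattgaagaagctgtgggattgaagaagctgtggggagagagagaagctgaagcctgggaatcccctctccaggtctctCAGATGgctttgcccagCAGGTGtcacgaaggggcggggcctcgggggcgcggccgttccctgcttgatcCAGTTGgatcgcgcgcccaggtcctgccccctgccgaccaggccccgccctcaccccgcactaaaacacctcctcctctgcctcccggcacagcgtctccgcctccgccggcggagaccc
The Adipoq window held 1 E-box and the Plin1, Cfd and Pnpla2 windows 3 each. An E-box was present in 8 of the 9 windows and in 72.3% of the 32851 windows of all genes. The letters CAGGTG on either strand, a subset of CANNTG, were present in 3 of the 9 windows, those of Lipe, Pnpla2 and Cfd, and in 20.2% of all. A match is a description of these letters, not a bound site.

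All 10 genes were highest in WAT. Per length, in transcripts per 1000000 (TPM) over the 4 WAT libraries, Fabp4, the fatty acid carrier of fat cells, stood at 17378 ± 1538 (SD) and Cfd, the complement protease adipsin, at 17094 ± 4557, and these levels overlapped. Cidec, which fuses lipid droplets, followed at 9068 ± 840, and Adiponectin (Adipoq), an insulin-sensitising hormone, at 5523 ± 964. Pnpla2 stood at 3302 ± 92.1 TPM and Lpl, the lipase that frees fatty acids from lipoproteins in capillaries, at 2624 ± 498. Lep, the satiety hormone leptin, stood at 1063 ± 291, Lipe at 593 ± 55.6, Plin1 at 277 ± 54.2 and Pde3b at 138 ± 3.08 TPM. The ranges of Pnpla2 and Lpl overlapped, while those of the last 4 were apart in this order. Together the 10 genes made up 5.38% to 6.09% of all TPM in WAT, 0.0726% to 0.166% in muscle and 0.0106% to 0.0285% in liver.

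The order was another one outside fat. In muscle Pnpla2 came first, at 446 ± 53.9 TPM over 5 libraries of both genotypes. In E47KO means Cfd, Fabp4 and Lpl followed, at 329, 217 and 201 TPM. In WT means the order was Lpl, Fabp4 and Cfd, at 113, 105 and 65.9 TPM. The range of Cfd, 21.6 to 448 TPM, overlapped those of the other 3 genes. In liver Pnpla2 also came first, at 106 ± 27.8 TPM, and Cidec, at 61.8 ± 50.5, varied from 9.34 to 120 TPM. Pde3b, at 24.9 ± 1.56 TPM in liver, came after these and was the lowest of the 10 in muscle. In 1 edgeR fit of the 14 libraries, all 10 genes were called higher in WAT than in muscle and in liver, at an adjusted p under 0.05. Of all 18113 genes tested, 43.5% and 41.6% were called higher in WAT. The members were chosen as genes of fat cells, so this describes them and does not test them. Adipoq, Lep, Cfd and Plin1, with at most 10 counts in any Dex liver, entered this fit through WAT and muscle. The smallest of the WAT differences were those of Pnpla2 from muscle, 2.22 ± 0.18 on the log2 scale (SE), and of Pde3b from liver, 1.53 ± 0.16 (SE). Between muscle and liver 9 of 10 were called, against 76.4% of all genes. Of these, 8 were higher in muscle, among them Adipoq, Lep, Cfd and Plin1. Pde3b was lower there, with a log2 difference of -3.59 ± 0.17 from liver (SE, with an adjusted p of 1.21e-09 in edgeR). Mice that gave both tissues were treated as independent in this fit.

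The members stood apart in how much fat exceeded muscle. The lowest WAT library exceeded the highest muscle library 80.1-fold in CPM for Cidec, 72.4-fold for Fabp4, 44.8-fold for Lep and 38.2-fold for Adipoq, but 8.82-fold for Lpl and 7.30-fold for Pnpla2. Muscle fibres are known to make Lpl and Pnpla2 themselves. In liver, Adipoq was counted at most 8 times, Lep 3, Cfd 10 and Plin1 4 times in a library, and each of these maxima came from WT liver replicate 1.

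The genes whose levels over the 14 Dex libraries were most like Adipoq were ranked by the root mean square difference of centred log2 CPM, over 15695 genes. Among the members the closest were Cfd (0.531), Fabp4 (0.752), Lep (0.929) and Plin1 (1.11). Outside the members they were Aoc3 (0.659), Retn (0.986), Apol6 (1.04), Sncg (1.19) and Lgals1 (1.27). Aoc3 is an amine oxidase of fat cells and vessels, and Retn encodes resistin, a fat cell hormone of the mouse. Pde3b (4.55) was the member least like Adipoq, at rank 5817 of all genes. These figures describe mainly the differences between tissues.

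In quadriceps muscle, 8 of the 10 genes were higher in every E47KO library than in every WT library, where 9.5% of all 14962 genes tested were so. These were Adipoq, Lep, Cfd, Fabp4, Plin1, Cidec, Lipe and Pde3b, and each had an unadjusted p under 0.05 with E47KO higher, against 2.91% of all genes (3.94% in either direction). After adjustment over all genes none of the 10 passed edgeR's test, where 0.0134% of all genes, 2 in number, did. DESeq2 called 6 of the 10 (Lep, Fabp4, Plin1, Cidec, Lipe and Pde3b), against 0.649% of the 13878 genes to which it gave an adjusted p. The median log2 fold change of the 10 was 2.22, and that of all genes 0.02. The members were chosen with earlier results of these data known. The 8 genes are not 8 independent observations, as WT muscle 1 was lowest and WT muscle 2 next for each. Higher counts of these genes in whole muscle can come from more fat cells in the sample or from more RNA per cell, and these cannot be told apart here.

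**Figure D1:**
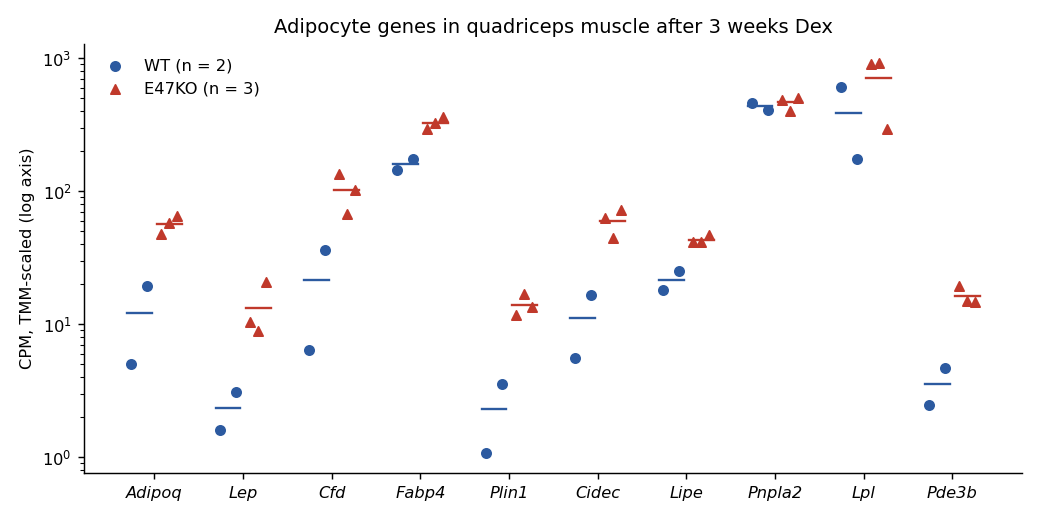
Level of each gene in quadriceps muscle after 3 weeks Dex, in CPM on TMM-scaled library sizes (log axis). Each point is 1 library, circles for WT (n = 2) and triangles for E47KO (n = 3), and short lines are group means. The groups were apart for 8 genes and overlapped for Pnpla2 and Lpl.

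Among the secreted proteins, Adipoq (ENSMUSG00000022878, mm10 chr16:23146536-23158028, plus strand) stood at 47.9, 57.9 and 65.6 CPM (here and for the other genotype comparisons after 3 weeks Dex on TMM-scaled library sizes) in E47KO muscles 1 to 3 and at 5.05 and 19.4 in WT muscles 1 and 2. The log2 fold change was 2.23 ± 0.53 (SE, with an adjusted p of 0.669 in edgeR). Lep (ENSMUSG00000059201, chr6:29060220-29073877, plus strand) stood at 10.4, 8.89 and 20.9 CPM against 1.60 and 3.11, which was 2.51 ± 0.48 higher on the log2 scale (SE, with an adjusted p of 0.540 in edgeR). E47KO muscle 3 had the highest Adipoq and Lep of the 5 libraries. Cfd (ENSMUSG00000061780, chr10:79890853-79892655, plus strand) stood at 136, 67.7 and 102 CPM against 6.43 and 36.5. Its log2 fold change of 2.25 ± 0.71 had the widest error of the 8 genes (SE, with an adjusted p of 0.9996 in edgeR). Cfd lies on chromosome 10, as does Tcf3, and the part of alleles linked to the E47 mutation was not tested. WT muscle 1 was lowest and WT muscle 2 next for all 3 genes.

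Of the lipid binding and droplet proteins, Fabp4 (ENSMUSG00000062515, chr3:10204088-10208576, minus strand) was at 296, 328 and 362 CPM in E47KO and 146 and 176 in WT. It differed less in fold than the hormones, by 1.03 ± 0.14 on the log2 scale, with a tighter error (SE, with an adjusted p of 0.340 in edgeR). Fabp4 is also made by endothelial cells, and the 8 endothelial markers had log2 fold changes from 0.01 to 0.38 in muscle, none with an unadjusted p under 0.05 in edgeR. The part of endothelial cells in the Fabp4 values was not tested. Plin1 (ENSMUSG00000030546, chr7:79720218-79732903, minus strand), the droplet coat protein of fat cells, stood at 11.8, 16.9 and 13.6 CPM against 1.07 and 3.56. Its log2 fold change of 2.61 ± 0.47 was the largest of the 10 (SE, with an adjusted p of 0.482 in edgeR). Cidec (ENSMUSG00000030278, chr6:113424634-113435760, minus strand) was at 62.7, 44.6 and 72.1 CPM in E47KO and at 5.62 and 16.8 in WT, a log2 fold change of 2.42 ± 0.47 (SE, with an adjusted p of 0.563 in edgeR). For both genes WT muscle 2 was nearer to the E47KO libraries than WT muscle 1 was.

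The lipolysis genes were not alike. Lipe (ENSMUSG00000003123, chr7:25379527-25398710, minus strand) stood at 41.4, 41.6 and 47.1 CPM in E47KO and 18.1 and 25.3 in WT, a log2 fold change of 1.00 ± 0.17 (SE, with an adjusted p of 0.419 in edgeR). Pde3b (ENSMUSG00000030671, chr7:114415281-114539251, plus strand) was at 19.5, 15.1 and 14.8 CPM against 2.47 and 4.69, and had the smallest p of the 10, with a log2 fold change of 2.21 ± 0.29 (SE, with an adjusted p of 0.340 in edgeR). Pnpla2 (ENSMUSG00000025509, chr7:141455198-141460743, plus strand) stood at 490, 405 and 508 CPM in E47KO and 461 and 411 in WT, and the groups overlapped. Its log2 fold change was 0.10 ± 0.14 (SE, with an adjusted p of 0.9996 in edgeR). Lpl (ENSMUSG00000015568, chr8:68880491-68907448, plus strand) was at 908, 915 and 294 CPM in E47KO and 604 and 177 in WT. It overlapped between genotypes, with a log2 fold change of 0.85 ± 0.64 (SE, with an adjusted p of 0.9996 in edgeR), and was lower in E47KO 3 and WT 2 than in the other libraries. These were the pair from the same range of animal numbers. Within each range every E47KO muscle was above its WT muscle for Lpl, and with the range as a block the log2 fold change was 0.66 (edgeR, adjusted p = 0.268).

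With the range of animal numbers as a block, the 8 genes kept log2 fold changes of 1.07 to 2.84, and Lep passed the test (edgeR, adjusted p = 0.0285), as 0.0267% of all genes did. WT muscle 2 had more counts of the hepatocyte gene Alb, at 122 CPM against 0.594 to 6.96 in the other 4 muscles; its part in the result was not tested beyond leaving it out. Without WT muscle 2, which was the higher of the WT pair for the 8 genes, Adipoq and Plin1 passed (edgeR, adjusted p = 0.0345 and 0.0485), as 0.0516% of all genes did, in a fit with 1 WT library that is assumed to vary like the E47KO libraries. The log2 fold change went from 1.56 without WT muscle 1 to 3.49 without WT muscle 2 for Adipoq and from 1.48 to 3.98 for Cfd, and for Lpl it went from 2.002 to 0.21.

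Relative to fat, the muscle levels were small. In CPM as a percent of the WAT mean, the E47KO muscles averaged 2.03% for Adipoq, 1.02% for Lep, 1.75% for Cfd, 1.15% for Fabp4, 2.98% for Plin1, 0.964% for Cidec, 3.38% for Lipe and 3.56% for Pde3b. The WT muscles averaged 0.419%, 0.176%, 0.354%, 0.553%, 0.472%, 0.175%, 1.66% and 0.755% for the same genes in this order. The amount by which E47KO exceeded WT muscle was thus 0.593% to 2.80% of the fat level for the 8 genes. Pnpla2 stood at 11.4% to 13.6% of the WAT mean in E47KO and at 10.5% and 13.1% in WT, and Lpl at 2.86% to 9.31% and at 1.64% and 6.23%, so both overlapped between genotypes. Libraries of the 2 tissues were scaled to their own totals, so these percentages are relative abundances.

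**Figure D2:**
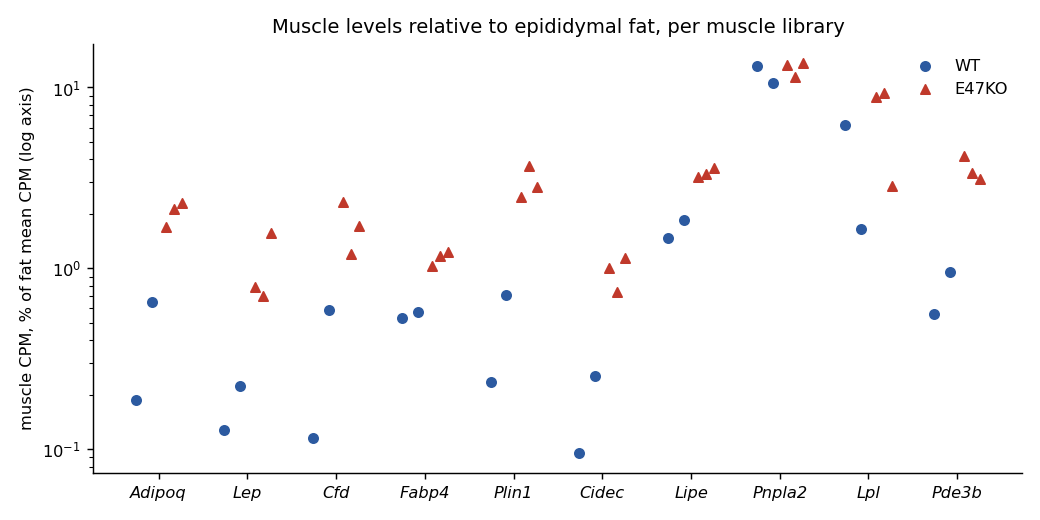
CPM of each gene in each muscle library as a percent of its mean CPM over the 4 WAT libraries (log axis), circles for WT and triangles for E47KO. For the 8 genes that were higher in every E47KO muscle, E47KO points lay between 0.699% and 4.18%, while Pnpla2 lay above 10.5% in both genotypes.

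Other genes of the adipocyte program, chosen like the members with earlier results known, were counted in muscle in the same way. Of 10 further genes listed as fat-enriched, 10 were higher in every E47KO muscle on TMM-scaled library sizes, as were 9.5% of all genes. Of these, 8 had an unadjusted p under 0.05 in edgeR with E47KO higher, against 2.91% of all genes. The median log2 fold change was 1.88. One of the 10, the insulin-regulated glucose transporter gene Slc2a4, was not fat-enriched here. Its means were 486 CPM in E47KO and 437 CPM in WT muscle against 158 CPM in WAT. On library totals its groups overlapped, with E47KO muscle 2 at 295% and WT muscle 1 at 297.5% of the WAT mean. Trarg1, a glucose transporter trafficking protein, stood at 7.87 ± 1.18 CPM in E47KO and 1.90 ± 0.984 in WT (SD, n = 3 and 2), and Scd1, the stearoyl-CoA desaturase, at 504 ± 299 and 104 ± 24.6. Of 18 lipolysis regulators 17 passed the filter on low counts. Of these, 10 had an unadjusted p under 0.05, all with E47KO higher, against 2.91% of all genes. Adrb3, the beta-adrenergic receptor of fat cells, stood at 4.87 ± 0.584 CPM against 0.401 ± 0.412 (log2 fold change 3.62 ± 0.62), and Prkar2b, a protein kinase A subunit, at 12.9 ± 0.939 against 2.72 ± 1.43. G0s2, the inhibitor of Pnpla2, stood at 7.74 ± 2.76 against 2.31 ± 0.932. Of 16 lipid droplet and triglyceride storage genes, 6 had an unadjusted p under 0.05 with E47KO higher, among them Dgat1 and Agpat2, enzymes of triglyceride synthesis. Of 10 transcription factors of adipocytes 2 did, Pparg at 8.67 ± 1.35 against 4.81 ± 0.438 CPM and Cebpa at 8.82 ± 2.19 against 2.91 ± 2.32. Of 14 other adipokines and receptors 13 passed the filter and 4 did, among them Retn at 15.1 ± 4.28 against 3.89 ± 2.75. The same share of 2.91% of all genes stands beside the counts of the other lists. None of these list genes had an adjusted p under 0.05.

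Markers of other cell types were counted beside them. None of the 12 skeletal muscle, 10 macrophage, 10 fibroblast and preadipocyte or 8 endothelial genes had an unadjusted p under 0.05 in muscle. Of all genes, 3.94% had one in either direction. All of the macrophage, fibroblast and endothelial genes had fitted log2 fold changes above 0, with medians of 0.27, 0.37 and 0.18, where 53.3% of all genes did. Summed over each list, the fibroblast and preadipocyte genes spanned 358 to 646 CPM in E47KO and 366 to 410 in WT muscle, and the macrophage genes 80.9 to 142 and 60.9 to 106. Of 6 nerve and Schwann cell genes 1 had an unadjusted p under 0.05, Mbp, at 13.5 ± 3.86 against 8.52 ± 1.28 CPM. Among the 6, 5 had log2 fold changes above 0, and the median was 0.48. In every E47KO muscle 3 of them were higher than in every WT muscle, as were 9.5% of all genes. Brown fat markers gave no such group: of 8 genes 6 passed the filter and 1, Cidea, had an unadjusted p under 0.05, at 1.83 ± 0.63 against 0.90 ± 0.119 CPM. Of the 12 hepatocyte genes 10 had log2 fold changes below 0 in muscle, with a median of -3.66. An unadjusted p under 0.05 was found for 2 of them, both lower in E47KO. Their sum was 10.6 CPM in WT muscle 1 and 252 in WT muscle 2, and 43.8 to 134 in E47KO. Alb was at 122 CPM in WT muscle 2 as given above. Cyp2e1, a hepatocyte marker that was also at 4693 to 9002 CPM in WAT, stood at 7.41 to 130 CPM in muscle, and at 55.6 CPM in WT muscle 2.

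In epididymal WAT, none of the 10 genes passed a test. None had an unadjusted p under 0.05, against 4.29% of all 16289 genes, and none an adjusted p under 0.05 in edgeR or DESeq2, as 0% of all genes did in edgeR. The median log2 fold change of the 10 was 0.02, with 6 above 0 and 4 below. With 2 libraries a genotype, 15.8% of all genes were higher in both E47KO and 17.2% lower in both. Among the 10, 1 was higher in both and 3 were lower in both, which is near those shares.

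Adipoq was higher in both E47KO fat samples, at 3496 and 2831 CPM against 2374 and 2566 in WT, a log2 fold change of 0.36 ± 0.19 (SE, with an adjusted p of 0.977 in edgeR). Lep was the lowest in fold, at 902 and 1256 CPM against 1676 and 1412, with a log2 difference of -0.52 ± 0.22 (SE, with an adjusted p of 0.977 in edgeR). Both hormones are made by the same cells, and their fold changes had opposite signs in fat. Cfd ranged from 3623 to 7631 CPM between the WT samples alone, with E47KO at 5290 and 6965 between them.

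Fabp4 stood at 27773 and 26434 CPM in E47KO and 30211 and 30668 in WT, and Cidec at 5555 and 5976 against 6432 and 6891, with log2 fold changes of -0.17 ± 0.26 and -0.21 ± 0.19 (SE). Both were lower in each E47KO sample, by less than the error of the fit allows to call. Plin1, at 508.3 and 439.4 CPM against 550.6 and 391.8, had a log2 fold change of 0.01 ± 0.20. Pnpla2 (3565 and 3754 against 3593 and 3819 CPM), Lipe (1363 and 1246 against 1324 and 1213) and Pde3b (453 and 487 against 434 and 487) had log2 fold changes of -0.02 ± 0.17, 0.04 ± 0.15 and 0.03 ± 0.13. Lpl varied more, at 9227 and 13116 CPM against 8019 and 10411, with a log2 fold change of 0.28 ± 0.29 (SE, with an adjusted p of 0.982 in edgeR). Each WT sample shared a range of animal numbers with 1 E47KO sample. With the range as a block no member passed, with the smallest adjusted p, 0.719 in edgeR, for Lep.

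**Figure D3:**
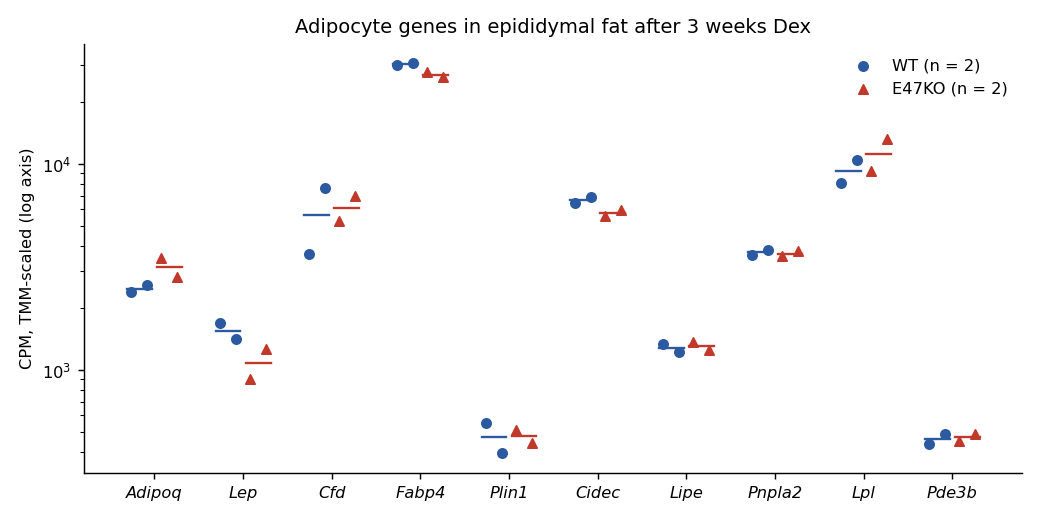
Level of each gene in epididymal WAT after 3 weeks Dex, in CPM on TMM-scaled library sizes (log axis). Each point is 1 library, circles for WT and triangles for E47KO (n = 2 each), and short lines are group means. No gene had an unadjusted p under 0.05.

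Around the members, 2 of 10 adipocyte transcription factors had an unadjusted p under 0.05 in WAT, where 4.29% of all genes did in either direction. Both were lower in E47KO, Cebpd at 57.0 ± 9.27 against 79.1 ± 7.41 CPM and Klf15 at 33.1 ± 7.51 against 45.0 ± 2.43. Of the 10, 9 had log2 fold changes below 0, with a median of -0.16. None of the 16 lipid droplet and triglyceride storage genes and none of the 13 other adipokines past the filter had an unadjusted p under 0.05 in WAT, and of the fat-enriched genes 1 did, Mest, at 212 ± 35.6 against 140 ± 37.0. Genes of other cells of the fat pad were counted too. Of 9 fibroblast and preadipocyte genes past the filter, 7 were higher in both E47KO samples, as were 15.8% of all genes. Among the 9, 4 had an unadjusted p under 0.05, against 4.29% of all genes, with Col1a1 at 170 ± 28.8 against 105 ± 14.9 CPM and Pi16 at 30.7 ± 7.72 against 15.2 ± 3.33. Their sum over the list was 1611 and 2077 CPM in E47KO and 1251 and 1423 in WT. Of 8 endothelial genes 2 were lower with an unadjusted p under 0.05, Emcn and Egfl7, against the same 4.29% of all genes in either direction. All 6 mesothelial genes had log2 fold changes above 0, with overlapping groups. None of the genes of these lists or of the lipolysis regulators had an adjusted p under 0.05 in WAT (edgeR), and the part of these cells in the fat values was not tested. Genes of epididymis and testis summed to 0.311 to 2.19 CPM in WAT.

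In Dex liver 6 of the 10 genes passed the filter on low counts. Adipoq, Lep, Cfd and Plin1 did not, and had 0 to 2 counts in each of the 3 E47KO livers. None of the 6 had an unadjusted p under 0.05, against 3.08% of all 13300 genes, and none passed the adjusted test in edgeR or DESeq2, against 0.00752% in edgeR. Cidec (Fsp27), which rises in fatty liver, varied most within genotypes, at 84.0, 12.4 and 8.09 CPM in E47KO livers 1 to 3 and 39.9 and 88.8 in WT livers 1 and 2. Its log2 fold change was -0.88 ± 0.94 (SE, with an adjusted p of 0.999 in edgeR). Leaving out 1 library moved it from -2.65 (without E47KO liver 1) to -0.20 (without WT liver 2). E47KO liver 1 had as much Cidec as WT liver 2, and the groups overlapped. Fabp4 stood at 9.81, 8.80 and 3.19 CPM against 12.4 and 11.1, lower in every E47KO liver as were 7.62% of all genes, with a log2 fold change of -0.69 ± 0.42 (SE, with an adjusted p of 0.999 in edgeR). The 8 endothelial genes summed to 143, 160 and 49.8 CPM in E47KO livers 1 to 3 and 155 and 47.5 in WT livers 1 and 2. Their part in the Fabp4 values was not tested. Pnpla2 was at 146, 148 and 88.9 CPM against 139 and 124. Lipe, Pnpla2, Lpl and Pde3b had log2 fold changes between -0.13 and 0.05, with SE of 0.14 to 0.29.

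**Figure D4:**
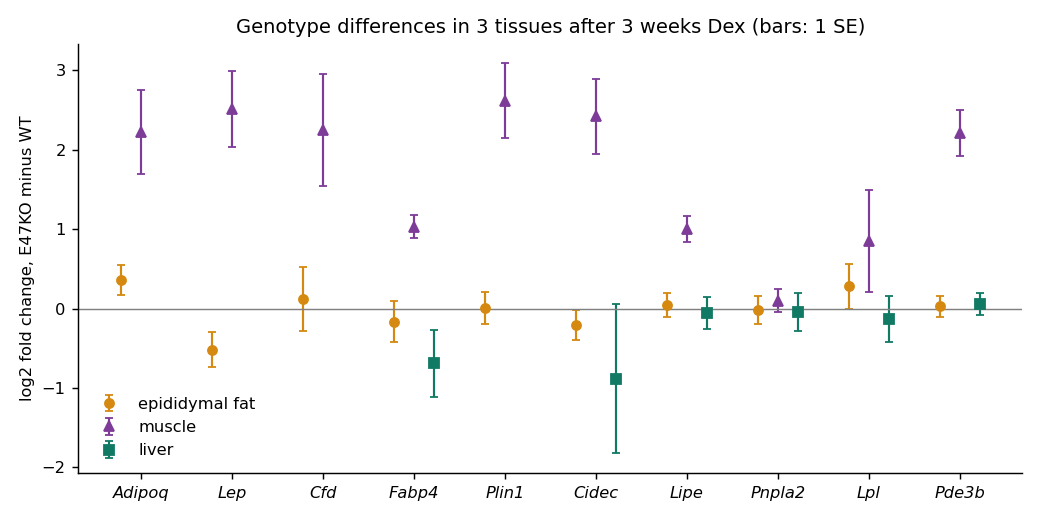
Log2 fold change of E47KO minus WT for each gene in WAT (circles), muscle (triangles) and liver (squares) after 3 weeks Dex, with bars of 1 SE from edgeR. Muscle values were 2.21 or more for 6 genes, while WAT values lay between -0.52 and 0.36, and 4 genes have no liver value.

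The genotype differences were compared between tissues in the fit of all 14 libraries. Between muscle and WAT the effects differed with an unadjusted p under 0.05 for 5 of the 10 genes, against 3.17% of all genes, and for none after adjustment in edgeR, against 0.011%. Pde3b had the smallest p, with an effect 2.13 ± 0.33 larger in muscle on the log2 scale (SE, with an adjusted p of 0.216 in edgeR). The differences were 3.00 ± 0.64 for Lep (adjusted p = 0.581), 2.56 ± 0.57 for Plin1 (adjusted p = 0.535), 0.92 ± 0.30 for Lipe and 1.82 ± 0.78 for Adipoq (both adjusted p = 1.00). DESeq2 called 3 of the 10, against 0.339% of all genes. Between muscle and liver, of the 6 genes past the liver filter 4 had an unadjusted p under 0.05 (Fabp4, Cidec, Lipe and Pde3b), against 4.6% of all genes, and none an adjusted p under 0.05 in edgeR, against 0%; DESeq2 called 2 of the 10, against 0.238% of all genes. Between WAT and liver none of those 6 had an unadjusted p under 0.05, against 3.27% of all genes, and none of the 10 passed the adjusted test in edgeR or DESeq2.

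The same genes were then followed through the other livers. In CPM of the library total, Cidec after Cort stood at 4.69 to 16.0 in E47KO (median 9.02) and 12.2 to 26.7 in WT (median 19.2). It was the only member with an unadjusted p under 0.05 in any liver comparison, with a log2 fold change of -1.05 ± 0.35 (SE, with an adjusted p of 0.376 in edgeR), where 9.84% of all 14588 genes had one and 0.0274% an adjusted p under 0.05. The groups overlapped, and DESeq2 called none of the members. In untreated livers Cidec stood at 1.999 to 28.5 CPM (median 5.14) in E47KO and 3.23 to 15.1 (median 4.61) in WT, a log2 fold change of 0.59 ± 0.61. In livers 1 h after Dex it stood at 2.06 to 6.35 CPM in E47LKO and 1.64 to 4.31 in floxed controls. The treatments were not compared with each other.

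Pnpla2 stood at 72.1 to 106 CPM in untreated E47KO livers and 75.3 to 101 in WT, and at 55.1 to 81.0 and 72.1 to 82.3 after Cort. Pde3b spanned 63.0 to 147 CPM over both untreated groups. Its lowest values were 63.0 CPM in E47KO 1, 64.2 in WT 1 and 72.8 in WT 2, and the rest stood at 99.9 CPM or more. Those libraries have the lowest library numbers of the untreated livers, and the part of the library series was not tested. Lpl, which adult hepatocytes make little of, reached 91.6 CPM in 1 E47LKO liver 1 h after Dex, with 35.1 to 91.6 in E47LKO and 17.8 to 45.8 in the floxed controls, a log2 fold change of 0.90 ± 0.40 (SE, with an adjusted p of 0.9998 in edgeR). Adipoq was counted at most 22 times, Lep 6 and Plin1 22 times in any of these 25 livers, and Cfd at most 87 times, in untreated livers. None of the members had an unadjusted p under 0.05 in untreated livers or 1 h after Dex, where 3.63% and 3.7% of all genes did, and none had an adjusted p under 0.05 in edgeR or DESeq2, where 0.0288% and 0% did in edgeR.

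**Figure D5:**
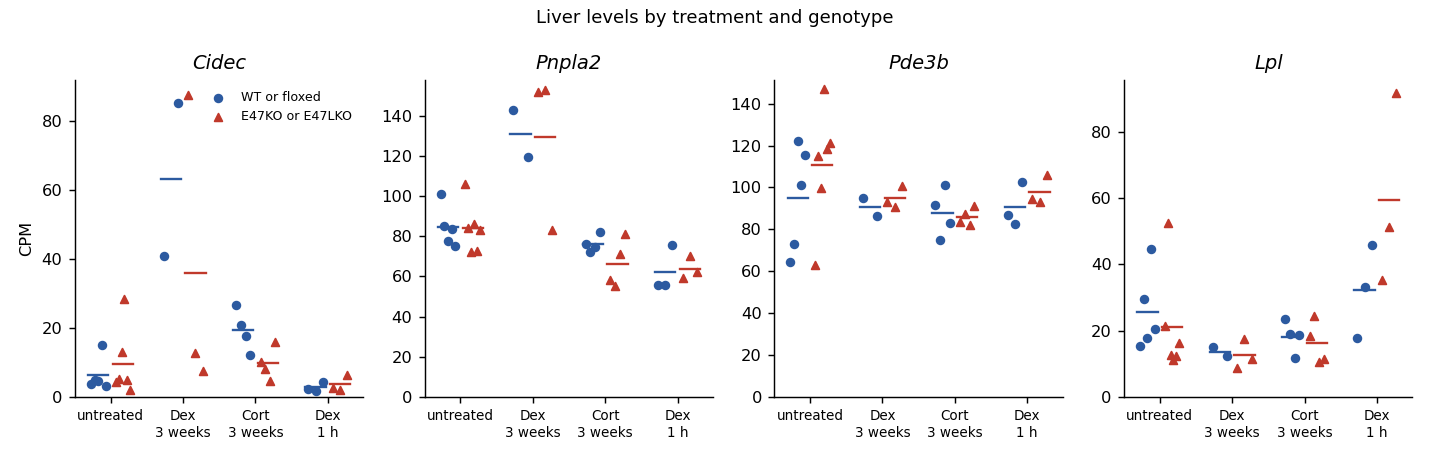
CPM of the library total for Cidec, Pnpla2, Pde3b and Lpl in each liver library by treatment, circles for WT or floxed and triangles for E47KO or E47LKO, with lines at group means. Cidec spanned 7.58 to 87.7 CPM in livers after 3 weeks Dex and 1.64 to 28.5 CPM in the other livers. These ranges overlapped, and the treatments were not compared with each other. The genotypes overlapped for these 4 genes in each treatment.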

How the data were processed

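RNA-seq counts per gene were deposited for each of 39 samples. The authors aligned reads to mm10 and counted them per gene with STAR 2.4.2a, by their methods, and the deposited counts are not normalised; HTSeq is also named in the submitters' processing notes. The column of unstranded counts was used for all libraries. Entries that name no gene, 20.8% to 36.8% of a file's counts, were left out. Tables of the authors' own comparisons were not used. Single lipolysis regulators in WAT are not reported here. Symbols and coordinates came from GENCODE on GRCm38 (mm10), which matched 45229 of 46078 gene identifiers of the Dex files. TPM used the union of exons.

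The members and gene lists were chosen with earlier results of these data known. The named genes were the 10 members, at most 4 genes of each other list per comparison (those with the smallest unadjusted p), the gene of a list with the most counts in a tissue, and the 5 genes most like Adipoq. E47KO and WT were compared within each tissue and treatment by edgeR 4.0.16 (TMM scaling, its default filter on low counts, quasi-likelihood test, Benjamini-Hochberg adjustment over all genes tested, threshold 0.05), in R 4.3.3. CPM in the genotype comparisons after 3 weeks Dex, and of single outlying livers, is TMM-scaled within the comparison, and list sums, percentages of WAT, markers of tissue and CPM in the other livers are on the library total. Tissues were compared in 1 fit of the 14 Dex libraries. DESeq2 1.42.0, other scaling, no filter, blocks, the strand column with more reads and leaving out each library were alternatives. The fits were tested on simulated counts with a fixed spread shared by all genes, not with the spread seen between the WT muscles. Of 53 pairs of replicates none differed by as little as sampling noise (chi-square over its degrees of freedom was at least 14.5). Depth per library was 15513941 to 54560884 counts, and with 2 WT samples in each Dex tissue the spread between samples limits the precision.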

Additional observations from a re-analysis of the deposited data

Results flagged for a closer look

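Groups of 4 to 6 livers were examined for a library far from the rest of its group, and 3 of 26 such groups of a member gene held one, where chance gives about 1 in 20. Lipe stood at 13.0 CPM in WT Cort liver 1 and at 16.4 to 16.6 CPM in the other 3. Cidec stood at 14.3 CPM in untreated WT liver 4 and at 3.16 to 5.27 CPM in the other 4. Lpl stood at 52.4 CPM in untreated E47KO liver 2 and at 10.8 to 22.4 CPM in the other 5. The groups of 2 or 3 libraries after Dex are too small for this test.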

How the results depend on the processing

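In muscle, the count of members with an adjusted p under 0.05 was 0 in edgeR, 6 with no filter on low counts (and 0.148% of all genes), 6 with DESeq2, 1 in the fit of 3 tissues (Pde3b, and 0.0773% of all genes), 1 with the range of animal numbers as a block (Lep) and 0 to 2 on leaving out each library; the 2 arose without WT muscle 2. The count at an unadjusted p under 0.05 with E47KO higher, whose alternatives were chosen after seeing the data, was 8 or 9 under all of them, and no log2 fold change changed sign in muscle. The difference of effects between muscle and WAT was called for 0 members, for 3 without the filter (0.12% of all genes), for 3 with DESeq2 and for 0 to 2 on leaving out each library, the 2 without WT muscle 2 (0.09%). Between muscle and liver it was called for 0, for 1 without the filter (0.0413%), for 2 with DESeq2 and for 0 to 1 on leaving out each library, the 1 without WT muscle 1 (0.201%) or without WT muscle 2 (0.0371%). The causes were not tested. Between tissues, 10 members were called for WAT against muscle, 10 for WAT against liver and 9 or 10 for muscle against liver under every alternative run, and in WAT, liver and the difference between WAT and liver 0 were.

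Replicate numbers are shared by the genotypes. The deviations of same-numbered libraries did not correlate above 0.1 in every pair (from -0.48 in Dex liver to 0.75 in untreated liver). The numbers were thus not taken to pair the samples. Deviations of libraries from the same range of animal numbers correlated at 0.133 to 0.345 in muscle, 0.249 in WAT and -0.059 to 0.485 in Dex liver. With 2 WT libraries in each Dex tissue, their correlations with an E47KO library have opposite signs and equal size by construction. The main fits left the range out, and it was a block among the alternatives. With a replicate block no member was called in muscle, liver or the other livers, and the log2 fold changes of Pnpla2 and Pde3b in Dex liver changed sign, to 0.16 and -0.048. In WAT the groups share 1 replicate number, so no fit with a replicate block could be made, and the range of animal numbers served as a block, with 0 members called. Small log2 fold changes changed sign on leaving out 1 library, and some of these fits leave 1 library in an arm, which is then assumed to vary like the others. Their ranges were Cfd -0.32 to 0.76, Plin1 -0.22 to 0.27, Lipe -0.029 to 0.10, Pnpla2 -0.066 to 0.025 and Pde3b -0.056 to 0.11 in WAT. They were Lipe -0.22 to 0.13, Pnpla2 -0.17 to 0.15, Lpl -0.42 to 0.092 and Pde3b -0.048 to 0.11 in Dex liver, Lipe -0.21 to 0.016 and Pde3b -0.14 to 0.0011 after Cort, Cfd -0.43 to 0.31, Fabp4 -0.10 to 0.14, Cidec -0.12 to 1.15, Lipe -0.060 to 0.12 and Pnpla2 -0.13 to 0.058 in untreated liver and Cidec -0.24 to 0.91 and Pnpla2 -0.043 to 0.19 at 1 h after Dex.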
